A study of Mus musculus with 6 samples.

Results

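The replication-dependent histone genes encode the bulk histones H1, H2A, H2B, H3 and H4 and lie in clusters. They were followed here in A+/G+ and A-/G+ cells, which carry the astroglial glutamate transporter GLAST and were sorted magnetically from neonatal mouse cerebellum with or without the surface antigen ACSA-2. The members were all probes whose gene name on the array begins with Hist1h, Hist2h, Hist3h or Hist4h, which gave 57 of 55681 probes and 49 of 24082 gene names. Of these probes, 6 report H1, 16 H2A, 13 H2B, 8 H3 and 14 H4. By cluster, 41 probes belong to Hist1 on chromosome 13, 11 to Hist2 on chromosome 3, 3 to Hist3 on chromosome 11 and 2 to Hist4 on chromosome 6.

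Each fraction comprised 3 arrays, 1 for each biological replicate of 50000 cells. Both fractions came from cerebella of wild-type mice of either sex that were pooled before dissociation. The labels give strain CD1 and postnatal days 1 to 3, whereas the methods of the study give another strain background and an earlier neonatal age. A+/G+ cells were taken by 1 positive selection for ACSA-2. A-/G+ cells were first depleted of cells binding beads against L1CAM, ACSA-2, CD45, PSA-NCAM and Ter119 and then selected for GLAST, so that the depletion is found in that fraction alone. The A+/G+ arrays shared slide 1 and the A-/G+ arrays slide 2, and an effect of the slide and one of the fraction cannot be told apart. The A-/G+ arrays were dimmer, with 18331 to 24725 probes well above background against 26469 to 26653 in A+/G+, and no histone probe was saturated on any array. The lowest normalized log2 signal well above background was 5.72, 4.95 and 4.03 in A-/G+ replicates 1, 2 and 3. It was 3.52 to 3.61 in A+/G+, so dim signals met a higher floor in A-/G+. A-/G+ replicate 3 stood apart from replicates 1 and 2 in markers of other cells, such as the neuronal gene Dcx (9.81 against 7.97 and 8.03) and the endothelial gene Kdr (9.4 against 7.31 and 7.31). Atp1b2, which encodes the ACSA-2 antigen, had a mean log2 signal of 12.82 in the A+/G+ arrays against 10.66 in the A-/G+ arrays (limma, adjusted p = 0.00725).

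Most histone protein is made while DNA is copied, and the mRNAs of these genes accumulate in S phase and are degraded when it ends. Unlike other mRNAs they usually carry no poly(A) tail. Their 3′ end is cut a few bases after a conserved stem-loop, which is bound by the stem-loop binding protein Slbp, with the help of the U7 small nuclear RNP. Some of the genes can also give longer transcripts that run past the stem-loop and end in a poly(A) tail, a form described in cells that leave the cell cycle. The labels describe the labeled material as amplified polyA RNA, so the position of a probe in the transcript was noted for each member.

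The stem-loop was searched for in the 60 bases of each probe as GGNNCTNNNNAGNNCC with both arms paired. It was found whole in 6 probes and cut by the end of the probe in 2 more, all of them members, and the whole form is found in 0.0108% of the probes on the array. The probes are shown around the stem-loop, in capitals, because they differ in how far they reach beyond it.
Hist2h2aa2: aaaaaGGCTCTTTTCAGAGCCacccactga
Hist1h2ae: CTTTTCAGAGCCattcactta
Hist2h2bb: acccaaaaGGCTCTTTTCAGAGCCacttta
Hist1h4m: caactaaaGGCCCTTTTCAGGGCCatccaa
Hist1h3g: cactttaaaGGCTCTTCTTAGAGCCaccca
Hist1h3i: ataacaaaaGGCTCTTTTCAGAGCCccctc
Hist1h3a: aattaaccaaaGGCTCTTTTCAGAGCCaca
Hist1h2ab: gaaagttaaccaaaacaaaGGCTCTTTTCA
The probe of Hist2h2aa2 goes on for 38 bases after the stem-loop and that of Hist1h2ae for 48 bases. The probes of Hist2h2bb and Hist1h4m end 6 bases after it, those of Hist1h3g and Hist1h3i 5 bases after it and that of Hist1h3a 3 bases after it, while the probe of Hist1h2ab ends within it.

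Of the other members, 15 probes (14 genes) were put past the usual end of the mRNA. The remaining 34 probes (31 genes) form the class upstream of the stem-loop, set by what remained and not by a located stem-loop. A probe was put past the usual end when its first base was beyond the length of the RefSeq gene, or beyond base 600 of the transcript for a core histone and base 800 for H1. The upstream class thus also holds a core histone probe that begins at base 506. It also holds the dim probes of Hist1h2al and Hist3h2bb-ps, which are now named as pseudogenes. All values below are normalized signals on the log2 scale, and a difference is the mean of A+/G+ minus the mean of A-/G+. A probe is said to be past the test when its Benjamini-Hochberg adjusted p over all probes in limma was at most 0.05, and to be called when the medians of the fractions were also at least 4-fold apart.

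Histone signals were more often higher in A-/G+ than in A+/G+. Of the 57 probes, 11 (19.3%) were past the test and higher in A-/G+, where 4.64% of all probes on the array were. Only 4 histone probes (7.02%) were past the test and higher in A+/G+, with a background of 4.65%. With the limit of 4-fold, 1 histone probe was called higher in A+/G+ (background 1.53%) and 0 were called higher in A-/G+ by limma (background 0.399%), with 0 also at an unadjusted p under 0.05 and by the methods' t-test. All 3 A-/G+ arrays lay above all 3 A+/G+ arrays for 31 probes (54.4%, background 24.3%), and the opposite held for 5 probes (8.77%, background 12.7%). Among probes well above background on all 6 arrays, of which 40 are histone probes, 9 (22.5%) were past the test and higher in A-/G+, compared with 11.9% of the 17944 such probes on the array. The median difference of the histone probes was -0.4, and that of all probes was -0.04. When each array was instead shifted to its 75th percentile, these medians were -0.79 and -1.02, but among probes well above background on all 6 arrays they were -0.75 and -0.16, and 7 histone probes were past the test and higher in A-/G+ (background 4.77%) and 3 higher in A+/G+ (background 2.2%). These counts depended on single arrays. Without A+/G+ replicate 1, 2 or 3, the probes past the test and higher in A-/G+ were 3, 1 and 1, respectively, and without A-/G+ replicate 1 they were 7. Those higher in A+/G+ were 2 without any one of the A+/G+ replicates. Without A-/G+ replicate 3, the test was passed by 14 probes higher in A-/G+ and by 4 in the opposite direction, and 1 probe was called in each direction. The median difference stayed between -0.57 and -0.42 when 1 array was left out.

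**Figure D1:**
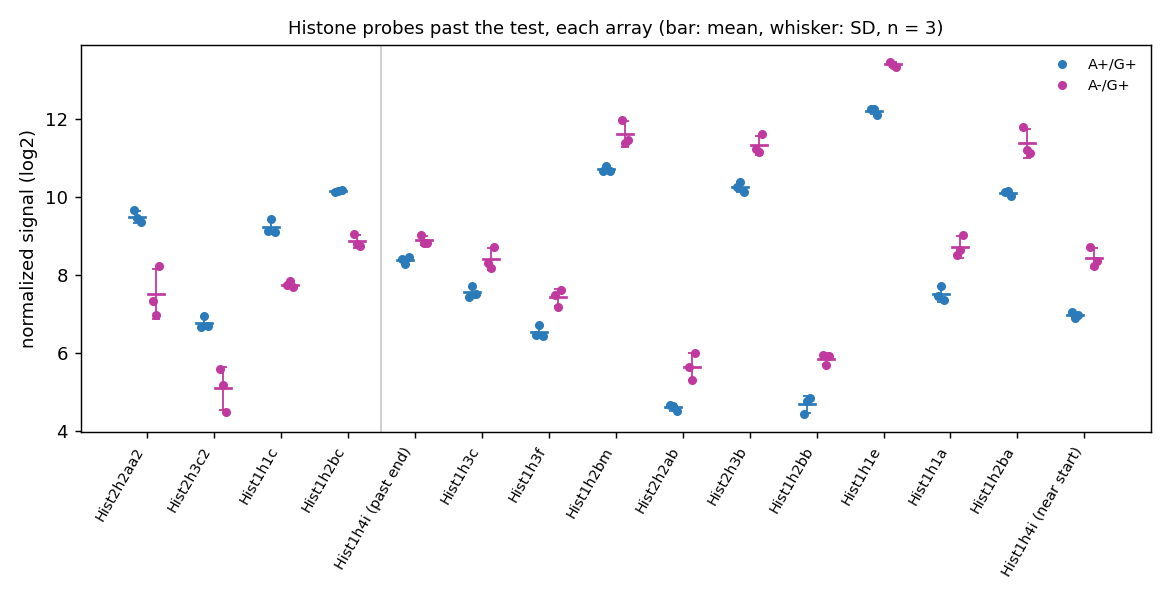
Normalized log2 signal on each array of the 15 histone probes past the test, in A+/G+ (blue) and A-/G+ (magenta), with the mean and SD of 3 arrays. The 4 probes left of the grey line are higher in A+/G+ and the 11 on its right are higher in A-/G+, and the arrays of the fractions do not overlap for any of them.

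The probes were then grouped by their place in the transcript. Of the 34 probes upstream of the stem-loop, 10 (29.4%, background 4.64%) were past the test and higher in A-/G+ and none was past the test in the other direction (background 4.65%). Their median difference was -0.61. This count was 3 without A+/G+ replicate 1 and by the methods' t-test, 1 without A+/G+ replicate 2 or 3, and 11 without A-/G+ replicate 3, where the median was -0.4. In 24 of them (70.6%, background 24.3%) all A-/G+ arrays lay above all A+/G+ arrays, and in none the reverse (background 12.7%). All 25 upstream probes that were well above background on all 6 arrays had a higher mean in A-/G+. Of these 25, 8 (32%) were past the test, compared with 11.9% of all such probes on the array that were higher in A-/G+. All A-/G+ arrays lay above all A+/G+ arrays in 21 of them (84%), compared with 32.8%. Of the 15 probes past the usual end, 3 (20%, background 4.65%) were past the test and higher in A+/G+. Another 1 (6.67%) was past the test and higher in A-/G+, near the background of 4.64%. The mean was the higher one in A+/G+ for 8 of the 15 probes, in A-/G+ for the other 7. Their median difference was 0.05, which was -0.45 under a shift of each array to its 75th percentile. The 6 probes that hold the stem-loop and reach at most 6 bases beyond it all had their higher mean in A-/G+. They did not overlap in 5 cases (83.3%, background 24.3%), and 0 were past the test. The difference between these classes was not tested.

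**Figure D2:**
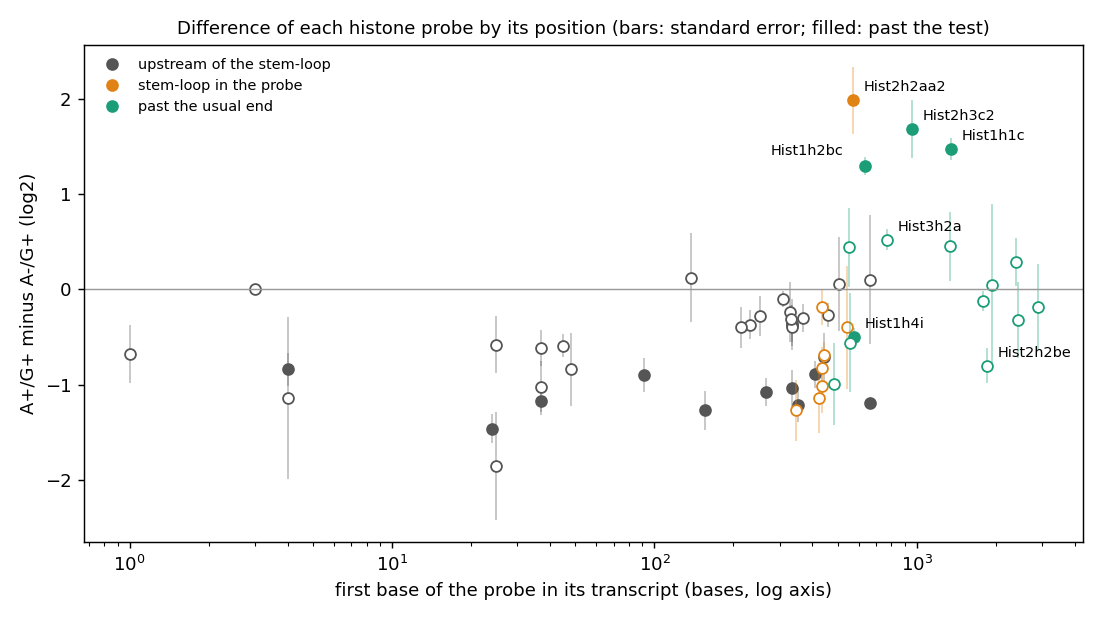
Difference of each of the 57 histone probes (A+/G+ minus A-/G+, log2, with its standard error) against the first base of the probe in its transcript on a log axis, colored by position class and filled where the probe is past the test. The 4 filled points above 0 begin at base 570 or later, and the filled points that begin before base 570 are all below 0, with 2 filled points below 0 beyond it, those of Hist1h4i and Hist1h1e.

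Among the linker histones H1, which bind the DNA between nucleosomes, the signals went both ways. The probe of Hist1h1c (H1f2 in current nomenclature) lies at chr13:23832018-23832077 of mm9 on the plus strand and begins at base 1343 of its transcript, whereas the RefSeq gene is 725 bases long. Its signals were 9.14, 9.43 and 9.1 in A+/G+ and 7.74, 7.84 and 7.69 in A-/G+. All A+/G+ arrays were higher, and the difference was 1.47 (standard error 0.114, adjusted p = 0.00613 from limma). The probe of Hist1h1e (H1f4), at chr13:23713707-23713766 of mm9 on the minus strand, begins at base 662 and falls in the upstream class. It was the brightest H1 probe, with 12.25, 12.24 and 12.11 in A+/G+ and 13.45, 13.39 and 13.34 in A-/G+. Here all A-/G+ arrays were higher, and the difference of -1.19 (standard error 0.0659, adjusted p = 0.0038) had the smallest p of the 57 members. Hist1h1a, another linker histone gene, gave 7.45, 7.73 and 7.36 in A+/G+ and 8.5, 8.63 and 9.03 in A-/G+, a difference of -1.21 (adjusted p = 0.0237). Hist1h1a no longer passed the test without any one A+/G+ array or without A-/G+ replicate 2, whereas Hist1h1c and Hist1h1e passed it without each array in turn. The probe of Hist1h1b differed by -0.71 without passing the test (adjusted p = 0.183). On no array was that of Hist1h1d, which begins at base 2887, well above background.

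H2A pairs with H2B in the nucleosome. Hist1h2af, Hist1h2ah, Hist1h2ak and Hist1h2an encode nearly the same protein, and the 4 probes over the end of their coding sequence are shown to make clear how little separates them, with capitals marking the bases that differ from the Hist1h2ah probe where the probes align.
Hist1h2ah: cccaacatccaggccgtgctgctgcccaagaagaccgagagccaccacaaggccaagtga
Hist1h2af: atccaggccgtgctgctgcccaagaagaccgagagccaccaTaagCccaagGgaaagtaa
Hist1h2ak: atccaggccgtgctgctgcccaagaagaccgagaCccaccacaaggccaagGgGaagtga
Hist1h2an: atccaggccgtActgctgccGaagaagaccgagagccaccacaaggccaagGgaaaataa
Each of the last 3 differs from the first at 3 of 54 aligned bases, and the RNA of one gene may bind to the probe of another. The Hist1h2ah probe, the brightest H2A probe, gave 16.26, 16.44 and 16.37 in A+/G+ and 16.26, 16.24 and 17.28 in A-/G+, so the fractions overlapped (difference -0.24, adjusted p = 0.664). Its high value in A-/G+ replicate 3 was shared by the other 3 probes, which differed by -0.36 to -0.4 with adjusted p from 0.321 to 0.507 and no overlap between the fractions. The only H2A probe past the test and higher in A-/G+ was that of Hist2h2ab, with 4.66, 4.65 and 4.51 in A+/G+ and 5.65, 5.3 and 6 in A-/G+. Its difference was -1.04 (standard error 0.192, adjusted p = 0.0394) and ran from -1.25 to -0.45 over all alternatives. The probe was well above background on 2 of the 3 A-/G+ arrays. It no longer passed the test without any one A+/G+ array or without A-/G+ replicate 1.

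Hist2h2aa2 (H2ac19), an H2A gene of the Hist2 cluster, gave opposite directions at its 2 probes. The probe upstream of the stem-loop, at chr3:96043781-96043840 of mm9 on the minus strand, begins at base 458 of the transcript. Its signals were 15.47, 15.59 and 15.5 in A+/G+ and 15.68, 15.65 and 16.04 in A-/G+. They were slightly higher in all A-/G+ arrays, with a difference of -0.27 that did not pass the test (adjusted p = 0.303). The probe shown above with 38 bases after the stem-loop, at chr3:96043669-96043728, begins at base 570 and runs beyond the 596 bases of the RefSeq gene. Here the signals were 9.66, 9.46 and 9.35 in A+/G+ and 7.33, 6.97 and 8.22 in A-/G+. This was the 1 histone probe that was called, with a difference of 1.98 (standard error 0.348, adjusted p = 0.0349) and medians 4.38-fold apart. It passed the test in the fit without A-/G+ replicate 3 but in none of the fits without another single array, and its adjusted p lay between 0.00744 and 0.129 over all alternatives. The second probe relative to the first was higher by 2.25 in A+/G+ than in A-/G+, and the 3 arrays of each fraction did not overlap in this measure (exact permutation test, two-sided, p = 0.1, the smallest that 3 arrays against 3 can give, and 0.18 after adjustment over 9 pairs of probes). The annotation of both probes also names the nearly identical gene H2ac18, so the 2 genes cannot be told apart here. Hist3h2a, an H2A gene of the Hist3 cluster, was measured at base 768, past the usual end, and gave 10.52, 10.48 and 10.44 in A+/G+ and 9.78, 10.17 and 9.93 in A-/G+. Its arrays did not overlap either, but the difference of 0.52 lay just outside the limit (adjusted p = 0.0574), with a range from 0.0188 to 0.185 over the alternatives.

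**Figure D3:**
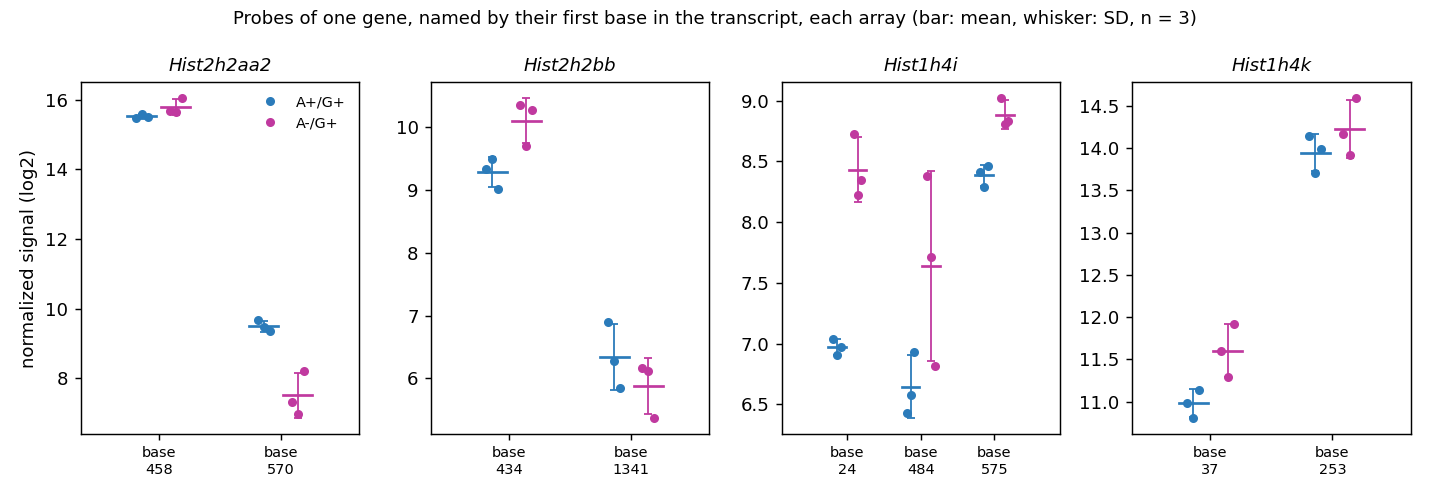
Normalized log2 signal on each array for the probes of Hist2h2aa2, Hist2h2bb, Hist1h4i and Hist1h4k, in A+/G+ (blue) and A-/G+ (magenta), with the mean and SD of 3 arrays, each probe named by its first base in the transcript. A+/G+ lies above A-/G+ at base 570 of Hist2h2aa2 and below it at base 458, whereas all 3 probes of Hist1h4i have a lower mean in A+/G+. The probes of Hist2h2bb are annotated to different transcripts.

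The H2B probes went both ways. Hist1h2bc (H2bc4) was measured at chr13:23784254-23784313 of mm9 on the plus strand, from base 633 of its transcript, past the usual end. Its signals were 10.12, 10.16 and 10.17 in A+/G+ and 9.04, 8.8 and 8.74 in A-/G+. All A+/G+ arrays were higher, with a difference of 1.29 (standard error 0.0959, adjusted p = 0.00577), and it passed the test without each array in turn. By contrast, Hist1h2bb, measured from base 37, gave 4.43, 4.78 and 4.85 in A+/G+ and 5.96, 5.69 and 5.92 in A-/G+. The difference was -1.17 (adjusted p = 0.0164) and ran from -1.36 to -0.49 over all alternatives. For this probe 2 of the 3 A-/G+ arrays were well above background. Hist1h2bm, the brightest H2B probe, gave 10.66, 10.79 and 10.67 in A+/G+ and 11.98, 11.37 and 11.47 in A-/G+, a difference of -0.9 just inside the limit (adjusted p = 0.0488). Its annotation also names H2bc7, H2bc9 and H2bc12. Without A+/G+ replicate 2 or 3 neither Hist1h2bb nor Hist1h2bm was past the test, and Hist1h2bm also lost it without A+/G+ replicate 1 or A-/G+ replicates 2 or 3. Under the 75th percentile shift Hist1h2bm was not past the test either. Hist2h2bb was measured at the stem-loop, where it differed by -0.83 (adjusted p = 0.1), and from base 1341, where it differed by 0.45 (adjusted p = 0.537). Hist2h2be differed from the other far probes of H2B, since its probe from base 1850 was higher in all A-/G+ arrays, with a difference of -0.8 that did not pass the test (adjusted p = 0.0628).

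Hist1h2ba belongs to the histone genes known mainly from the testis, together with Hist1h1t and Hist1h2aa. Its probe was well above background on all 6 arrays, with 10.12, 10.16 and 10.03 in A+/G+ and 11.8, 11.2 and 11.13 in A-/G+. All A-/G+ arrays were higher, with a difference of -1.27 (standard error 0.201, adjusted p = 0.0274), and it no longer passed the test without any one A+/G+ array or A-/G+ replicate 2. The other two were near background. Hist1h1t lay well above background in 2 A+/G+ and 0 A-/G+ arrays, and Hist1h2aa in none.

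H3 and H4 form the core of the nucleosome together with H2A and H2B. All A-/G+ arrays lay above all A+/G+ arrays for 6 of 8 H3 (75%) and 9 of 14 H4 probes (64.3%). This compares with 24.3% of all probes and 32.8% of those well above background on all 6 arrays. For H3, 3 of 8 probes (37.5%, background 4.64%) were past the test and higher in A-/G+. Hist2h3b gave 10.25, 10.37 and 10.13 in A+/G+ and 11.23, 11.14 and 11.6 in A-/G+ (difference -1.08, adjusted p = 0.02), and its annotation also names H3c15, the current name of Hist2h3c2. Hist1h3f gave 6.46, 6.71 and 6.45 in A+/G+ and 7.49, 7.19 and 7.61 in A-/G+ (difference -0.89, adjusted p = 0.0286). Hist1h3c, just inside the limit, gave 7.44, 7.71 and 7.51 in A+/G+ and 8.3, 8.18 and 8.72 in A-/G+ (difference -0.84, adjusted p = 0.0489). Just outside it, Hist1h3a at the stem-loop gave 5.08, 5.33 and 5.08 in A+/G+ and 5.93, 5.61 and 6.03 in A-/G+ (difference -0.69, adjusted p = 0.0503). Over all alternatives the difference of Hist1h3a ran from -0.84 to -0.26. All 4 probes were without overlap between the fractions. The first 3 no longer passed the test without any one A+/G+ array, nor did Hist1h3f without A-/G+ replicate 1 or Hist1h3c without A-/G+ replicates 1 or 2. Hist1h3f and Hist1h3c also lost it under the 75th percentile shift, and Hist1h3c with the software's outlier spots kept. Hist1h3d, the brightest H3 probe, overlapped between the fractions at 13.82 to 14.09 (difference -0.1, adjusted p = 0.545), and its annotation also names H3c2, H3c6 and H3c11.

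The H3 probe that went the other way was again far downstream. Hist2h3c2 was measured at chr3:96042034-96042093 of mm9 on the minus strand, from base 958, while the RefSeq gene is 649 bases long. Its signals were 6.68, 6.95 and 6.69 in A+/G+ and 5.6, 5.18 and 4.5 in A-/G+. All A+/G+ arrays were higher, with a difference of 1.68 (standard error 0.3, adjusted p = 0.0368), and 1 of the 3 A-/G+ arrays was well above background. The probe lies on the same strand as the Hist2h2aa2 probe with the stem-loop and 1575 bases downstream of it. It no longer passed the test without any one A+/G+ array, without A-/G+ replicate 2 or under the 75th percentile shift.

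No H4 probe had a higher mean in A+/G+. The differences of the 14 probes ran from -1.85 to -0.12, and 9 of them had all A-/G+ arrays above all A+/G+ arrays. Hist1h4i (H4c9) was measured from base 24, from base 484 and from base 575. The probe near the start gave 7.04, 6.91 and 6.97 in A+/G+ and 8.73, 8.22 and 8.35 in A-/G+ (difference -1.46, adjusted p = 0.0107). The probe from base 575, past the usual end, gave 8.41, 8.29 and 8.46 in A+/G+ and 9.02, 8.81 and 8.83 in A-/G+ (difference -0.5, adjusted p = 0.0364). Both were thus higher in A-/G+, so the place of the probe did not turn the direction in this gene, although the difference was smaller by 0.96 at the far probe (exact permutation test, two-sided, p = 0.1, the smallest possible, and 0.18 after adjustment over the 9 pairs). The far probe no longer passed the test without any one A+/G+ array or A-/G+ replicates 1 or 2, nor the near probe without A+/G+ replicates 2 or 3. Under the 75th percentile shift the far probe lost the test too. The largest difference, that of Hist1h4h (-1.85), did not pass the test (adjusted p = 0.127). The brightest H4 probe, that of Hist1h4k from base 253, overlapped between the fractions, with a difference of -0.28 (adjusted p = 0.523), and its annotation names other H4 genes.

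Both directions were found among probes noted for possible binding to several genes and among the others. The annotation or the sequence of 16 probes pointed to other genes, and 2 of these (12.5%) were past the test and higher in A-/G+ and 1 (6.25%) was higher in A+/G+. Among the 41 probes without such a note, the counts were 9 (22%) and 3 (7.32%), with a median difference of -0.56. The backgrounds were 4.64% and 4.65%. These 41 probes were not compared with all transcripts, so they may bind several genes too. The sequences AATAAA and ATTAAA, known from polyadenylation signals, were found on the sense strand in 3 and 2 histone probes (5.26% and 3.51%). This compares with 10.1% and 3.95% of all probes, and none of these histone probes was past the test. They are matches of the sequence alone, 1 of them in a probe of the upstream class, and their use as signals was not tested.

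The promoters of the members share known elements. RefSeq promoters of GRCm38.p6, from 250 bases before to 50 bases after the start, were given for 42 of the 49 genes. Counting both strands, CCAAT was found in 36 of the 42 (85.7%) and in 37.4% of all promoters, and TATAAA in 25 (59.5%) and 13.6%, respectively. CCAAT was found in every promoter of H1, H2A, H2B and H3 genes and in 2 of 8 of H4 genes. The octamer ATTTGCAT, a motif known from H2B promoters, was found in 5 of 9 H2B and 7 of 13 H2A promoters and in none of the others, against 1.74% of all promoters. Many H2A and H2B genes lie head to head and share the sequence between them. The promoters of Hist1h2bb and Hist1h1e, both higher in A-/G+, are shown with these motifs in capitals, and the first holds the octamer while the second does not. They lie at chr13:23746484-23746783 on the plus strand and at chr13:23622509-23622808 on the minus strand of GRCm38.p6.
Hist1h2bb: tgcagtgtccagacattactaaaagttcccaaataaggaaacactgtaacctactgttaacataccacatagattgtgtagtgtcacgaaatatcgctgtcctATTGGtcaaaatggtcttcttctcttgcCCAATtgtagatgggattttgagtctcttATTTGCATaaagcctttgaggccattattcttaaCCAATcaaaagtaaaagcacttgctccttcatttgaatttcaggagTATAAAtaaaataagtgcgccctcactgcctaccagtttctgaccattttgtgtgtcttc
Hist1h1e: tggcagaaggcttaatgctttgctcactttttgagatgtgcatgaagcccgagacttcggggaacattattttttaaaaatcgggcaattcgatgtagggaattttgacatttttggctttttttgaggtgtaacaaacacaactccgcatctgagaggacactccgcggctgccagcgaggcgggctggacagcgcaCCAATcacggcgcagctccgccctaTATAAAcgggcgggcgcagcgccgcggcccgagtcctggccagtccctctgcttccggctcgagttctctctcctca

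Genes that work with the histones were followed as lists, with the brightest probe of each gene. Taken over the brightest probe of all 24082 gene names, 5.12% were past the test and higher in A-/G+, and 9.98% of those well above background on all 6 arrays. None of the 11 replication-independent histone genes was past the test, with a median difference of -0.17 that was -0.01 without A-/G+ replicate 3. These genes lie outside the clusters and were listed as expressed outside S phase or in all phases. The variant genes H3f3b and H2afz differed by 0.18 and -0.17. Of 13 genes for histone mRNA processing and histone gene transcription, 1 (7.69%) was past the test and higher in A-/G+ (median -0.15). This was Ncbp1, a subunit of the nuclear cap-binding complex (-0.41, adjusted p = 0.0345), whereas Slbp differed by -0.04 (adjusted p = 0.908). Of 14 histone chaperones, which carry histones to DNA, 2 (14.3%) were higher in A-/G+ (median -0.29), namely Nasp (-0.57, adjusted p = 0.0214) and the histone importin Ipo4 (-0.55, adjusted p = 0.0175).

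Genes of DNA replication and of mitosis were the last lists. Of 28 DNA replication genes, 4 (14.3%), namely Mcm3, Mcm7, Cdc6 and Ccne1, were past the test and higher in A-/G+ and 0 were higher in A+/G+. The median of their differences was -0.45. All A-/G+ arrays lay above all A+/G+ arrays in 19 of the 28 (67.9%), compared with 23.3% of all gene names and 29.3% of those well above background on all 6 arrays. Mcm7, a subunit of the replicative helicase, differed by -0.74 (adjusted p = 0.0178), and Cdc6, which loads the helicase, by -0.8 (adjusted p = 0.0242). Of 18 mitosis genes, 8 (44.4%) were past the test and higher in A-/G+ and 0 in the other direction, with a median of -0.7 and 15 (83.3%) without overlap. The proliferation marker Mki67 differed by -0.78 (adjusted p = 0.0266). Under the 75th percentile shift the medians of both lists stayed below 0, at -0.58 and -0.78, but 0 genes of either list were past the test. The count of DNA replication genes was 0 without A+/G+ replicate 1 or 3 and 1 without replicate 2 of either fraction. That of mitosis genes was 0 without A+/G+ replicate 3, 2 without A+/G+ replicate 1, 4 without replicate 2 of either fraction and 5 without A-/G+ replicate 1. Whether these lists account for any of the histone differences was not tested, and fewer cells in cycle and less RNA per cell cannot be told apart in such samples.

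**Figure D4:**
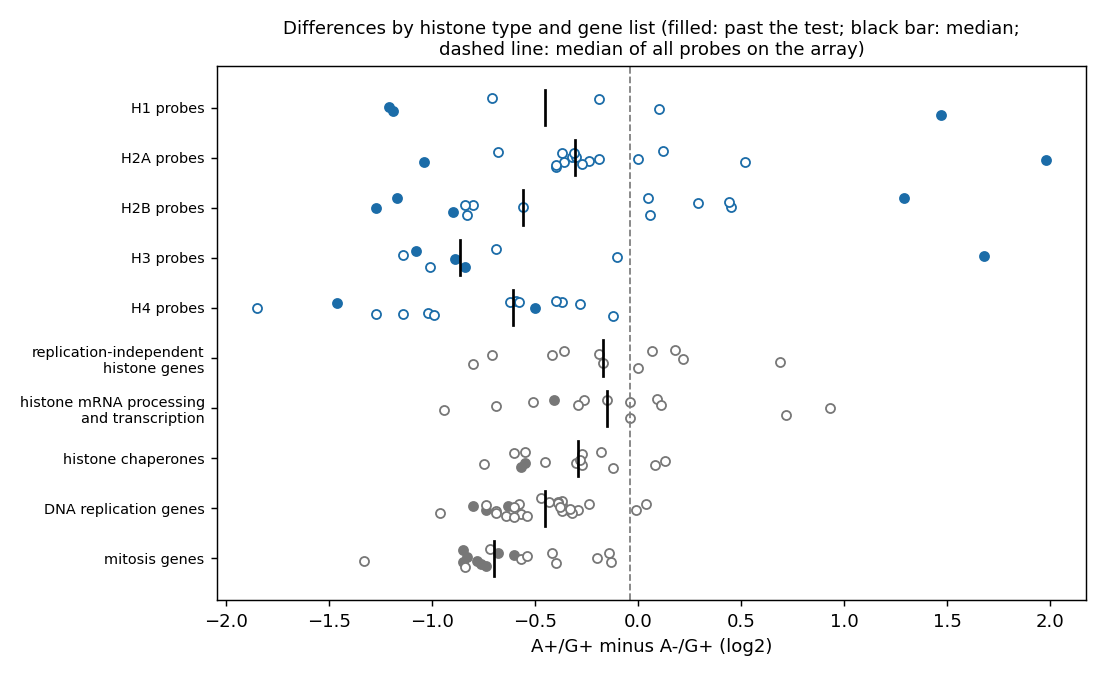
Differences (A+/G+ minus A-/G+, log2) of the histone probes by type (blue, 1 point for each probe) and of the gene lists (grey, 1 point for each gene), filled where past the test, with the median as a black bar. The medians run from -0.87 for H3 to -0.15 for histone mRNA processing and transcription, beside the median of all probes at -0.04 (dashed line) and that of the brightest probes of gene names well above background on all 6 arrays at -0.07, which is not drawn, and the filled points right of 0 are 1 each of H1, H2A, H2B and H3.

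Markers of other cells moved with the fractions as well. As a background, 7.48% of all gene names, by their brightest probe, passed the test toward A+/G+, against 5.12% toward A-/G+. For names well above background on all 6 arrays, these shares were 8.94% and 9.98%. All A+/G+ arrays lay above all A-/G+ arrays for 19.1% of all names and for 22.7% of the names well above background. Of 5 oligodendrocyte precursor markers, 3 (Pdgfra, Olig1 and Olig2) were past the test and higher in A+/G+, and the log2 of their summed signal was 13.62 to 13.9 in A+/G+ and 10.13 to 11.13 in A-/G+. Of 4 endothelial markers, 1 (Cdh5) was higher in A+/G+ (sums 12.68 to 13.26 and 10.29 to 12.73), a count that was 3 without A-/G+ replicate 3 and 0 without any one A+/G+ array or A-/G+ replicate 2. Of 6 markers of granule neuron precursors, which divide in the neonatal cerebellum, 1 (Pax6) was past the test and higher in A-/G+ (sums 14.55 to 14.71 and 14.99 to 15.36), but by their means 3 of the 6 were higher in A+/G+. These were Atoh1, which defines the granule lineage (1.29, adjusted p = 0.263), Barhl1 (1.1, adjusted p = 0.456) and Neurod1 (0.31, adjusted p = 0.82), and the median of the list turned from -0.15 to 0.15 without A-/G+ replicate 3. Of 9 astroglial markers, 3 (Gja1, Gfap and Atp1b2) were higher in A+/G+ and 2 (among them Hopx) in A-/G+, and all 9 were well above background on at least 1 array (sums 17.05 to 17.19 and 16.98 to 17.63). None of 6 neuron and 5 microglia and white blood cell markers was past the test, with sums of 12.94 to 13.67 and 11.94 to 13.04 for the former and of 7.06 to 9.57 and 8.8 to 9.18 for the latter. The neuron list had a median difference of 1.13, with Stmn2 (2.18) and L1cam (2.54) higher in all A+/G+ arrays. Map2 (-0.35, adjusted p = 0.0602) was instead higher in all A-/G+ arrays, and only 4 of the 6 differences lay above 0. Without A-/G+ replicate 3 the test was passed by 4 neuron markers higher in A+/G+ and by 1 in the opposite direction. Of the erythroid genes, 3 were higher in all A+/G+ arrays without passing the test, with differences of 1.52 to 2.12. On no array was Ptprc, which defines white blood cells, well above background. The part of these cells in the histone differences was not tested.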

How the data were processed

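For 6 Agilent arrays with 1 color the authors deposited spot intensities that Feature Extraction (version 10.7.3.1) had corrected for background. A log2 table that the authors had quantile normalized served as an alternative. Per the labels, T7-amplified polyA RNA was hybridized. Here log2 intensities, less control spots and the software's outlier spots, were quantile normalized and then averaged by probe. The fractions were compared over 55681 probes with limma 3.58.1 in R 4.3.3, with no filter on dim probes. The 75th percentile of the intensity was 332 to 334 on the A+/G+ arrays and 56.6 to 251 on the A-/G+ arrays, and the number of arrays limits the precision.

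The members and gene lists were chosen with earlier results of these data known. Named are the members past the test, the brightest probe of each type, those nearest to the limit, the testis-type genes, and at most 4 genes of a list. Probe positions are on mm9 as the array annotation gives them, and RefSeq (GRCm38.p6) was used for names, gene lengths and promoters. All 57 probes matched a RefSeq gene. A probe was noted for possible binding to several genes when its annotation names another gene. It was also noted when it shares at least 30 bases, with up to 3 mismatches, with the probe of another member gene. Other genes named beside these rules (Hist1h1b, Hist1h1d, Hist1h4h, Hist2h2bb, Hist2h2be, Hist3h2a, and the list genes named for their role, their direction or an array that stands apart) were chosen after their values were seen.

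Alternatives were the methods' t-test, the authors' table, a 75th percentile shift, normexp correction (offset 50), outlier spots kept, dim probes filtered out, limma with trend and robust variance, a replicate block, each array left out, a limit of 2-fold, the mean of a gene's probes, and bright probes alone. The slide could not be fitted as a block. On simulated data with 200 of 55660 probes changed by 3 on the log2 scale, 64% were past the test, with 8 false ones. One entry of a marker list is not reported here.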

Additional observations from a re-analysis of the deposited data

How the results depend on the processing

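No one of the 15 histone probes past the test turned its direction under any alternative run, but 12 of them lost the test without at least 1 array, and Hist1h1c, Hist1h1e and Hist1h2bc kept it without each array in turn. The histone probes past the test and higher in A-/G+ (11) were 7 under the 75th percentile shift, 19 with the filter on dim probes (fewer probes tested), 3 by the methods' t-test and 1 to 14 with 1 array left out. Those higher in A+/G+ (4) were 2 by the methods' t-test and 2 to 4 with 1 array left out. The probes upstream of the stem-loop that were higher in A-/G+ (10) were 3 by the methods' t-test and 1 to 11 with 1 array left out, and the probes past the usual end that were higher in A+/G+ (3) were 2 to 3 with 1 array left out. The 1 probe called higher in A+/G+ became 0 with normexp correction and with the methods' t-test, 4 at a limit of 2-fold and 0 to 1 with 1 array left out. The 0 probes called higher in A-/G+ became 6 at a limit of 2-fold and 0 to 1 with 1 array left out. The median difference of the histone probes (-0.4) was -0.79 under the 75th percentile shift and lay from -0.57 to -0.42 with 1 array left out. Without the probes noted for possible binding to several genes, an alternative chosen after seeing the data, it was -0.56. With the class past the usual end set by the RefSeq length alone, chosen likewise, 2 probes were past the test and higher in A+/G+, without Hist1h2bc. Except where values above show it, the cause of these changes was not tested.

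The direction of 2 dim testis-type probes was not settled. Hist1h1t (0.1) turned to -0.69 under the 75th percentile shift, -0.1 with normexp correction and ran from -0.55 to 0.7 with 1 array left out. Hist1h2aa (0.12) turned to -1.26 under the 75th percentile shift and ran from -0.12 to 0.58 with 1 array left out.

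The labels do not say whether same-numbered samples of the fractions were paired. The deviations of same-numbered arrays correlated by 0.09, 0.06 and 0.01 over all probes, which does not settle it. With the replicate block, 0 histone probes were past the test in either direction, 0 were called in either direction, and 0 upstream or far probes were past the test, with a lowest adjusted p of 0.063. This was so for all probes of the array (0 past the test), and at an unadjusted p under 0.05 19 histone probes were higher in A-/G+ under the block, and 5 were higher in A+/G+. Because the A-/G+ arrays were dimmer, small signals are the least certain, and 17 histone probes were not well above background on all 6 arrays, 6 of them on none.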
